A study of Mus musculus with 4 samples.

Results

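The genes described here are Tac1, Ucn3, Trpa1, Afp, Olfr558, Fxyd6, Il17re, Amigo2, Cpb2 and Bok, followed within cells rich in Tph1, the mRNA of the enzyme that starts serotonin synthesis. All 10 were found among the 29161 genes of the count table. A cell was called Tph1-high when it held at least 200 CPM of Tph1 (CPM, counts scaled to a cell total of 1000000), which 97 of 290 cells did. The 10 genes had been picked because they lead the Tph1-high cells, so their levels there and their pairing are descriptions without a test. The cells were single eYFP+ cells sorted from enteroids, small epithelial cultures kept in Matrigel. Their medium held EGF, Noggin and R-spondin-1. The donors were adult female CD1 Neurog3eYFP/+ mice, in which 1 allele of the endocrine fate gene Neurog3 carries the reporter, and no group without it was analysed here. There were 4 plates with 1 cell per well. Duodenum plate 1 came from 39-week-old mice, duodenum plates 2 and 3 from 12-week-old mice and the jejunum plate from 12-week-old mice. The labels do not say whether plates come from separate animals, so the spread between plates may be partly technical. The label of the gene group speaks of maturation, but the cells carry no time label, so the genes are called here by name only.

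Enterochromaffin cells are the serotonin-making endocrine cells of the gut epithelium. They sense chemical and mechanical stimuli from the lumen, release serotonin onto nerve endings and neighbouring cells, and in the small intestine often make tachykinins as well. Tac1 encodes the precursor of substance P and neurokinin A. Ucn3 encodes urocortin 3, a peptide of the corticotropin-releasing factor family that acts on the receptor Crhr2. Trpa1 is a cation channel opened by irritants, and Olfr558 is a receptor of the odorant receptor family that responds to branched short-chain fatty acids.

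RefSeq promoters (GRCm38.p6) were matched for 9 of the 10 genes. The 250 bases before the start of 4 of them are printed because the results turn on these genes: Tac1 is on in nearly every cell, 11 of the 13 cells with Ucn3 on also had Afp on, and Olfr558 was the gene called in the comparison by age. Capitals mark CAGATG or its other-strand form CATCTG, an E-box form bound by basic helix-loop-helix factors such as Neurog3 and Neurod1, and TAATTA, a core read by many homeodomain factors. The sequences run 5′ to 3′ on the gene's strand.
Tac1 (chr6:7554811-7555060, plus strand): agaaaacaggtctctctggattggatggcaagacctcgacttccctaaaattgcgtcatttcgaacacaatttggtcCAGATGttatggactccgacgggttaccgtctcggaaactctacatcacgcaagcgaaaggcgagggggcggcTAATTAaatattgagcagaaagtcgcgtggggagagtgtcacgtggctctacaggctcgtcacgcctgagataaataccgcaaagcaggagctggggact
Ucn3 (chr13:3945350-3945599, minus strand): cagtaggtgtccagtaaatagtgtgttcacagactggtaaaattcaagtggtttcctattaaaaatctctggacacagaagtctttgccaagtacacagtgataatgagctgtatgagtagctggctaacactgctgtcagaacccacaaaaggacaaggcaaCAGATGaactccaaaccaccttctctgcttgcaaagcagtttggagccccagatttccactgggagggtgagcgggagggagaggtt
Afp (chr5:90490464-90490713, plus strand): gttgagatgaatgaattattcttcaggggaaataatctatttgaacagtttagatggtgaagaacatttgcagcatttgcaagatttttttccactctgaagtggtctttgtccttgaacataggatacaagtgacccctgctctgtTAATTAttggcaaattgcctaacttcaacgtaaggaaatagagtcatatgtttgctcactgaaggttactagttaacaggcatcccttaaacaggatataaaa
Olfr558 (chr7:102702073-102702322, plus strand): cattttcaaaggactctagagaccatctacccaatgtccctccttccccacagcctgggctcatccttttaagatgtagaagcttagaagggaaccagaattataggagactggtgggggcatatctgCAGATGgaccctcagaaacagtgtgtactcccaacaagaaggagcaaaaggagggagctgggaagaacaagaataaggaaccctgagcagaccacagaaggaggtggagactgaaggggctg
CAGATG on either strand was present in the promoters of 3 of the 9 genes (Tac1, Ucn3 and Olfr558) and in 14.4% of 32851 promoters of the same length. TAATTA, which reads the same on both strands, was present in Tac1 and Afp and in 4.84% of all promoters. The windows of Fxyd6, Il17re, Amigo2, Cpb2 and Bok held neither. These are matches of letters, not measured sites. The starts are those of RefSeq, and the Tac1 and Olfr558 windows run past the gene starts in the GENCODE annotation (7554879 and 102702215). The marked matches of Tac1 lie inside its GENCODE gene. For Afp and Bok the bases just after the RefSeq start were not found in a GENCODE transcript.

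The deposited table held 72, 83 and 72 cells for duodenum plates 1, 2 and 3 and 63 for the jejunum plate, against 92 cells sorted per plate. Of these, 21, 25, 20 and 31 were Tph1-high. Plate totals ranged from 23893272 to 46490618 counts, and the median Tph1-high cell held 382036, 474939, 466818 and 810355 counts, so the jejunum cells were the most deeply sequenced. Summed Tph1 was 1683, 1510, 1732 and 3169 CPM, and Slc18a1, which loads amines into granules, was 840, 949, 1163 and 1206 CPM. The transporter Slc6a4, which takes serotonin back up, was at most 1.98 CPM in any plate. Of 9 other hormones, 6 were at 0 in the Tph1-high cells of plate 1 and 1 to 3 in the other plates. Of 8 immune and stromal markers, 4, 4, 4 and 2 were at 0, among them Cd79a of B cells in all plates. Their summed level of 783, 1772, 2670 and 2448 CPM was mostly Vim (722, 1749, 2659 and 2365 CPM), and its part in the results was not tested. In plate 1, 12 genes were at 0 that reached at least 20 CPM in every other plate over all cells, and no other plate had such a gene. The 12 include Gcg, Gip, Scg3 and Krt20 and none of the 10 genes described here. Only 6 cells lay between 100 and 400 CPM of Tph1, on either side of the cut. One of them, at 111 CPM of Tph1 in plate 2, held 7612 CPM of Afp and 1373 CPM of Il17re and was left out by the rule.

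A gene was called on in a cell at 100 CPM or more. For Tac1, Ucn3 and Cpb2 this level fell in an empty range. Ucn3 was never above 14.8 CPM in an off cell and never below 199.8 CPM in an on cell. For the other 7 genes the values came closer to it, with the highest off and lowest on cell at 96.7 and 103.6 CPM for Bok, 96.6 and 105.1 CPM for Il17re and 99.0 and 122.6 CPM for Trpa1. Of the 544 values above 0 of the 10 genes, 27 lay between 50 and 100 CPM and 53 between 100 and 200 CPM. The count of on cells therefore depended on the cut. At 500 CPM, Bok was on in 1, 2, 2 and 2 cells of the 4 plates in place of 10, 12, 10 and 16, Amigo2 in 0, 3, 2 and 2 in place of 2, 8, 6 and 16, and Il17re in 1, 5, 0 and 14 in place of 8, 11, 3 and 21. At 20 CPM, Bok was on in 13, 15, 12 and 23 cells and Amigo2 in 2, 13, 8 and 20. Ucn3 counts were 1, 7, 3 and 2 at 20 CPM and 1, 7, 2 and 1 at 500 CPM. The gap between few and many counts was not particular to these genes. Of all values above 0 in Tph1-high cells, over all genes, 42.1% were 1 to 4 counts, 10.8% were 5 to 19 counts and 23.0% were 80 to 319 counts. For the 10 genes these shares were 24.3%, 7.54% and 21.3%. Whether copies of a molecule were collapsed in the counts is not given in the sources used here, so an on cell cannot be translated into a number of molecules, and a gene that is off may still be expressed.

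**Figure D1:**
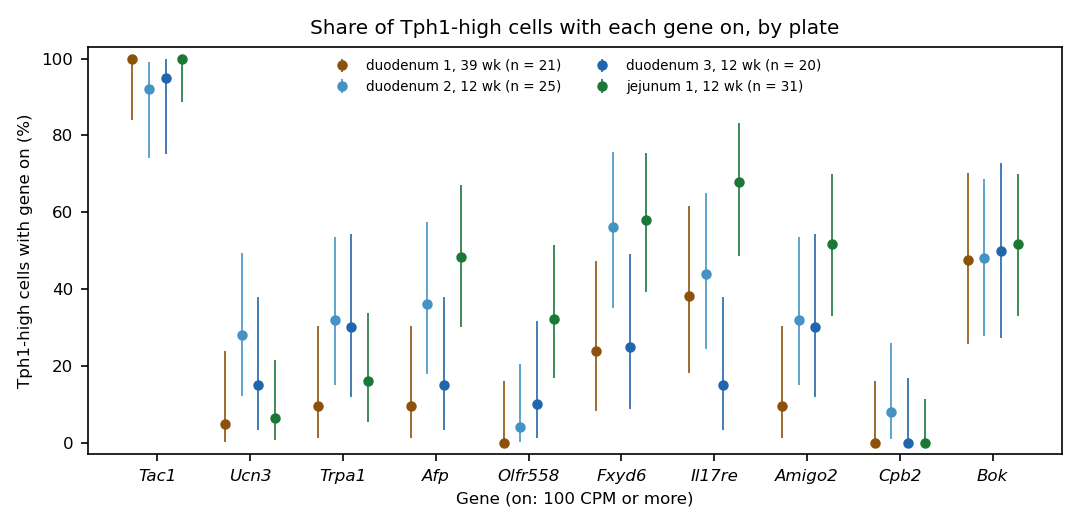
Percent of Tph1-high cells (vertical axis) in which each gene reached 100 CPM, by plate, with exact 95% binomial intervals for counting error. Tac1 lies between 92.0% and 100% in all plates, Bok between 47.6% and 51.6%, and Olfr558 runs from 0% to 32.3%.

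The 2 peptide genes differed in how many Tph1-high cells held them. Tac1 (chromosome 6, 7554879 to 7565834, GRCm38) was on in 21 of 21, 23 of 25, 19 of 20 and 31 of 31 cells of duodenum plates 1, 2 and 3 and the jejunum plate. Its level over the summed Tph1-high cells was 2692, 5091, 5407 and 5734 CPM, lowest in the 39-week plate. Single cells ranged from 8.54 to 18427 CPM, with a median of 3660 CPM. The 3 cells without Tac1 also lacked Ucn3, Trpa1, Afp, Olfr558, Fxyd6, Il17re, Amigo2 and Cpb2. Ucn3 (chromosome 13, 3940688 to 3945349) was on in 1 of 21, 7 of 25, 3 of 20 and 2 of 31 cells. Its summed level was 33.7, 686, 152 and 57.3 CPM. In duodenum plate 1, 96.0% of all Ucn3 counts of the plate came from 1 cell, and in the jejunum plate 63.1%. A single cell therefore sets the Ucn3 level of those plates. Among the receptors for these peptides that were tested or listed, Tacr3 and the binding protein gene Crhbp were at 0 in all Tph1-high cells, and Crhr2 reached at most 3.12 CPM.

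The 2 sensor genes also marked minorities. Trpa1 (chromosome 1, 14872648 to 14918862) was on in 2 of 21, 8 of 25, 6 of 20 and 5 of 31 cells, and its summed level was 35.6, 323, 211 and 131 CPM. Olfr558 (chromosome 7, 102702215 to 102712064) was on in 0 of 21, 1 of 25, 2 of 20 and 10 of 31 cells. No Olfr558 count was found in any Tph1-high cell of duodenum plate 1. By the rule of 3 counts, 0 of 21 cells allows a share of cells with a count of up to 14.3%, and the exact two-sided interval ends at 16.1%. Its summed level was 40.7, 34.9 and 234 CPM in duodenum plates 2 and 3 and the jejunum plate, so the jejunum plate held most of it. An unprocessed pseudogene, Gm45688, overlaps Olfr558 exons on the opposite strand, and reads of the pair cannot be told apart without stranded counting.

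Afp and Cpb2 encode secreted plasma proteins. Afp, the fetal relative of albumin (chromosome 5, 90490737 to 90508907), was on in 2 of 21, 9 of 25, 3 of 20 and 15 of 31 cells. Its summed level of 50.6, 4997, 149 and 3828 CPM spanned the widest range among the genes on in every plate. In plate 2 a single cell with 45625 CPM held 61.7% of the plate's Afp counts. In plate 2 and the jejunum plate, where the highest cells held 45625 and 27930 CPM, every Tph1-high cell had some Afp, at least 3.40 CPM in plate 2 and 7.62 CPM in the jejunum plate, and the median Tph1-low cell had 9.33 and 21.1 CPM. In duodenum plates 1 and 3, where no cell passed 1257 CPM, 2 of 21 and 5 of 20 Tph1-high cells had any Afp count. Cpb2, a carboxypeptidase that acts on fibrin clots (chromosome 14, 75242287 to 75283555), was on in 2 cells of plate 2, at 117 and 241 CPM, and in no Tph1-high cell of the other plates.

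Fxyd6, a regulator of the sodium-potassium pump (chromosome 9, 45370185 to 45396159), was on in 5, 14, 5 and 18 cells. Il17re, the receptor subunit for interleukin 17C (chromosome 6, 113458484 to 113470758), was on in 8, 11, 3 and 21 cells. Amigo2, a leucine-rich-repeat adhesion protein (chromosome 15, 97244125 to 97247287), was on in 2, 8, 6 and 16 cells. Its single exon overlaps Pced1b on the opposite strand, which had 544 counts in all. For each of the 3, the jejunum plate had the largest share of cells on, 58.1%, 67.7% and 51.6%. Bok, a Bcl2-family protein (chromosome 1, 93685660 to 93695764), was the steadiest of the 10. It was on in 10 of 21, 12 of 25, 10 of 20 and 16 of 31 cells, and its summed level was 159, 165, 183 and 172 CPM.

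Levels of different genes were compared per kilobase of exon. Whether counts grow with exon length in this assay was not tested, and the order without this step was different. Over all Tph1-high cells the order was Tac1 (1498 CPM per kb), Afp (868), Ucn3 (142), Fxyd6 (109), Bok (92.6), Amigo2 (57.9), Il17re (55.5), Trpa1 (40.6), Olfr558 (40.6) and Cpb2 (2.77). In plain CPM it was Tac1 (5092), Afp (2925), Fxyd6 (448), Il17re (326), Ucn3 (210), Amigo2 (183), Trpa1 (173), Bok (170), Olfr558 (124) and Cpb2 (4.51). Across plates the per-kb level of Tac1 was 1392 ± 407 (SD, n = 4 plates), that of Afp 670 ± 753 and that of Ucn3 157 ± 208. The SD of Afp and that of Ucn3 exceeded their means. Among neighbours in the per-kb order, Bok (92.2 ± 5.51) and Amigo2 (49.8 ± 35.0) were the only pair whose plate means differed by more than the larger of their SDs.

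In the other 193 cells, Tac1 was on in 30, Bok in 14, Il17re and Amigo2 in 5 each, Fxyd6 in 4, Ucn3 and Trpa1 in 2 each, Afp and Cpb2 in 1 each and Olfr558 in none. Of the 14 Tph1-low cells with Bok, 10 were in duodenum plate 1. The Tph1-high cells held 55.4% of all Bok counts in plate 1 and 99.1% in the jejunum plate.

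**Figure D2:**
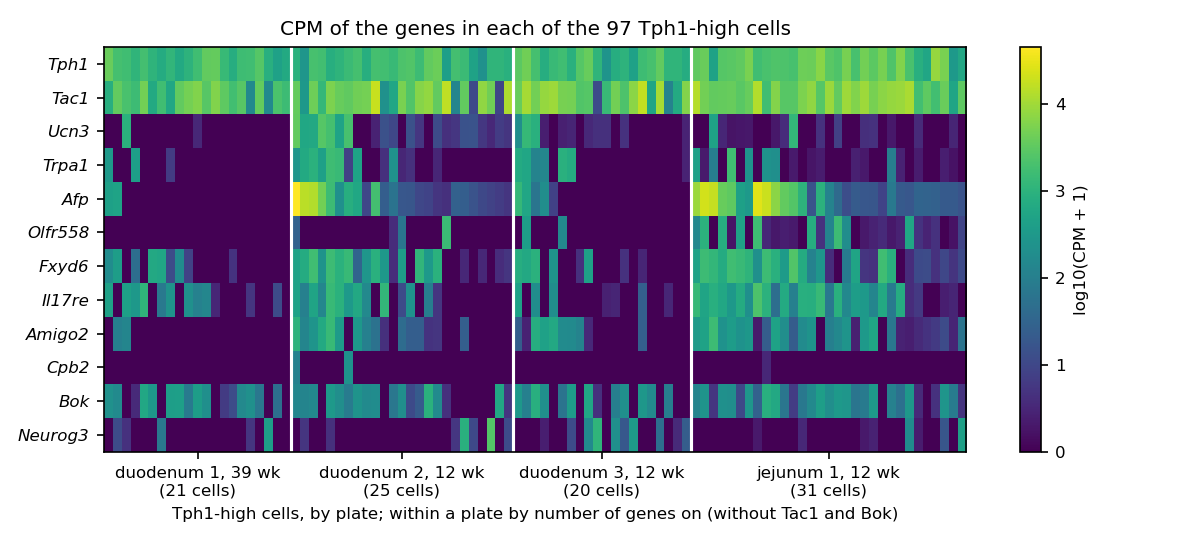
Each column is 1 of the 97 Tph1-high cells, grouped by plate and, within a plate, sorted by how many genes other than Tac1 and Bok are on; colour is log10(CPM + 1). Tac1 fills nearly all columns, and the sort puts the cells with most genes on at the left of each plate, up to 7 of 8 in plate 2.

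Of the 8 genes other than Tac1 and Bok, several were often on in the same cells, while Olfr558 is described apart. None of the 8 was on in 33 cells and 1 in 20 cells, while 5 or more were on in 17 cells (10 with 5, 6 with 6 and 1 with 7). Of the 13 cells with Ucn3 on, 12 also had Fxyd6, 12 Il17re, 11 Afp, 9 Trpa1, 9 Amigo2 and 8 Bok. The reverse did not hold for Afp, since 18 of the 29 Afp-on cells, and 13 of 15 in the jejunum plate, lacked Ucn3. With the cut at 500 CPM for both genes, Il17re was on in 27.3% of Ucn3-on cells. Among all Tph1-high cells of the 4 plates its shares at that cut were 4.76%, 20.0%, 0% and 45.2%. The share of Ucn3-on cells with Il17re on thus depended on the cut. At 500 CPM Ucn3 was on in 7 of 25 cells of plate 2 and 1 of 31 of the jejunum plate. These shares therefore do not compare Ucn3-on with Ucn3-off cells of 1 plate, and the pairing at that cut was not tested. Of the 84 cells without Ucn3, 30 had Fxyd6, 31 Il17re, 18 Afp, 12 Trpa1, 23 Amigo2 and 40 Bok. The highest Ucn3 cell, with 3398 CPM in plate 2, was also the highest Afp cell and held 263 CPM of Trpa1, 475 of Fxyd6, 491 of Il17re, 1045 of Amigo2 and 117 of Cpb2. Both Cpb2-on cells had Ucn3, Afp, Fxyd6 and Il17re on. Pooling cells over plates mixes plates of unlike shares, so each pair was also counted by plate. Afp was on in 7 of 7 Ucn3-on cells of plate 2, 2 of 3 of plate 3 and 2 of 2 of the jejunum plate, and in 2 of 18, 1 of 17 and 13 of 29 Ucn3-off cells. The single Ucn3-on cell of plate 1 had no Afp. Trpa1 was on in 6 of 7 Ucn3-on cells of plate 2 and 3 of 3 of plate 3, but in 0 of 2 of the jejunum plate and 0 of 1 of plate 1. One of the 2 jejunum cells held 92.6 CPM of Trpa1, just under the cut. Without plate 2, Trpa1 was on in 3 of 6 Ucn3-on cells and 10 of 66 Ucn3-off cells.

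Trpa1-on cells had a like set of partners. Of 21 such cells, 17 had Bok, 16 Afp, 15 Fxyd6, 15 Il17re and 15 Amigo2, against 31, 13, 27, 28 and 17 of the 76 Trpa1-off cells. Ucn3 was on in 9 of the 21. Afp and Fxyd6 were the most regular pair, with Fxyd6 on in 2 of 2, 8 of 9, 2 of 3 and 14 of 15 Afp-on cells of the 4 plates, and in 3 of 19, 6 of 16, 3 of 17 and 4 of 16 Afp-off cells. Over the cells of a plate the rank correlation of Afp and Fxyd6 was 0.45, 0.46, 0.61 and 0.52 (n = 21, 25, 20 and 31 cells). That of Trpa1 and Afp was 0.31, 0.72, 0.53 and 0.36. In plates 1 and 3 only 2 of 21 and 5 of 20 Tph1-high cells had any Afp count. For Trpa1 they were 3 of 21 and 7 of 20, so most ranks of both genes there were ties. The cells of a plate share a library, and depth moved with some of these genes. In plate 2 the correlation with a cell's total count was 0.73 for both Fxyd6 and Amigo2, and in plate 3 it was 0.73 for Trpa1. Afp-on cells held a median of 708068 counts and Afp-off cells 442649, and the part of depth in the pairing was not tested beyond thinning each cell to 100000 counts.

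**Figure D3:**
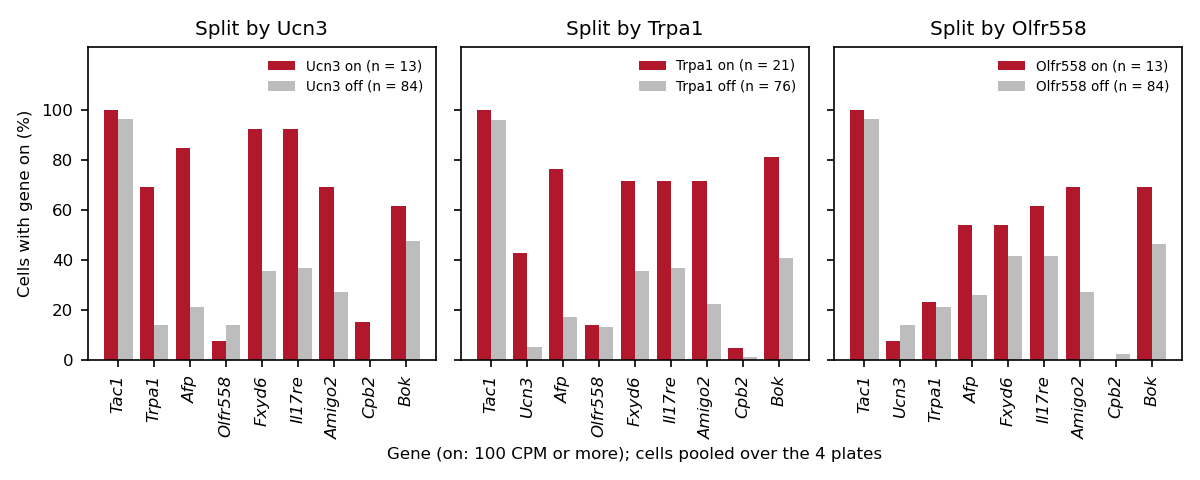
Percent of Tph1-high cells with each gene on (bars from 0), split by whether Ucn3, Trpa1 or Olfr558 is on, cells of the 4 plates pooled. Afp is on in 84.6% of Ucn3-on and 21.4% of Ucn3-off cells, while Olfr558 is on in 7.69% and 14.3%.

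Olfr558 was on in few of the same cells as Ucn3. Only 1 cell, in plate 3, had Olfr558 and Ucn3 on together, with 388 and 1314 CPM. In the jejunum plate 10 cells had Olfr558 on and 2 had Ucn3 on, and none had both. Trpa1 was on in 3 of the 13 Olfr558-on cells and 18 of the 84 others, so the shares were close (23.1% and 21.4%). Afp, Fxyd6, Il17re and Amigo2 were on in 7, 7, 8 and 9 of the 13. Among the 84 others they were on in 22, 35, 35 and 23, so each pooled share was higher where Olfr558 was on. Pooling mixes plates of unlike shares, and 10 of the 13 cells were in the jejunum plate. There Afp was on in 6 of 10 and 9 of 21 cells, and Il17re in 8 of 10 and 13 of 21. The Olfr558-on cell of plate 2 had none of these genes on. In plate 3 Il17re was on in 0 of 2 against 3 of 18. Afp, Fxyd6 and Amigo2 were on there in 1 of 2 each, against 2, 4 and 5 of 18. In the jejunum plate Amigo2 and Bok were each on in 8 of 10 Olfr558-on and 8 of 21 Olfr558-off cells. Fxyd6 was close there, at 6 of 10 and 12 of 21. With so few Ucn3-on cells in the plate rich in Olfr558, exclusion of the pair was not detectable at this number of cells.

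Tac1 ran higher where Olfr558 was on. The 13 Olfr558-on cells held from 2964 to 16392 CPM of Tac1 with a median of 9201, against a median of 3495 in the 84 others. Within the jejunum plate the medians were 8406 CPM in 10 cells and 3723 CPM in 21 cells, and the ranges overlapped. The 13 Ucn3-on cells had a median Tac1 of 3671 CPM and the 84 Ucn3-off cells 3648 CPM. The rank correlation of Tac1 and Ucn3 was 0.20, -0.51, -0.09 and -0.41 in the 4 plates, and much of the Ucn3 signal behind these ranks was below 15 CPM. With cells split at each plate's median Tac1, Ucn3 was 0.25, 305, 253 and 0.54 CPM on the Tac1-high side and 67.7, 1118, 34.2 and 117 CPM on the Tac1-low side, higher on the low side in 3 of 4 plates.

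**Figure D4:**
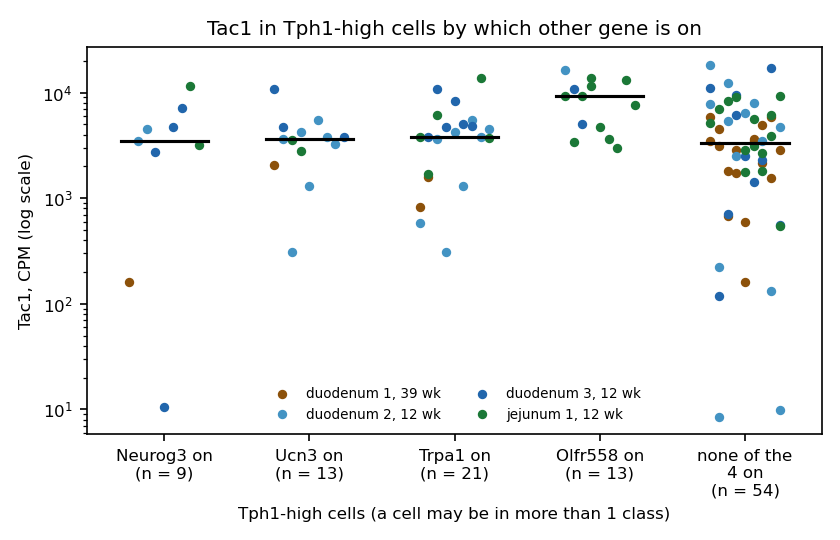
Tac1 CPM (log axis) of each Tph1-high cell by whether Neurog3, Ucn3, Trpa1 or Olfr558 is on in it, coloured by plate, with lines at medians. The Olfr558-on cells have a median of 9201 CPM and the 54 cells with none of the 4 genes on a median of 3322 CPM.

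Neurog3, the transcription factor that starts endocrine differentiation, was on in 9 Tph1-high cells (1, 2, 4 and 2 per plate). Of these 9, 8 had Tac1 on, 3 Bok, 1 Fxyd6 and 1 Olfr558, and none had Ucn3, Trpa1, Afp, Il17re, Amigo2 or Cpb2. Among the 88 Neurog3-off cells these 6 genes were on in 13, 21, 29, 43, 32 and 2. A count of 0 of 9 is a small sample, and the Neurog3-on cells were also shallower, with a median of 416332 counts against 499963. Pax4, another early endocrine factor, was on in none of the 13 Ucn3-on cells and in 33 of the 84 Ucn3-off cells. The granule protein gene Chga had a median of 12722 CPM in Ucn3-on and 3019 CPM in Ucn3-off cells. Neither trait was seen for Ucn3 alone. Median Chga was 9395 CPM in Afp-on and 1834 CPM in Afp-off cells. For Fxyd6, Il17re and Amigo2 it was 9350, 9305 and 9667 CPM against 1682, 1478 and 1860 CPM. These medians pool plates of unlike Chga. Within every plate the on cells had the higher median for Afp, Il17re and Amigo2. For Fxyd6 this held in plates 2 and 3 and the jejunum plate. In plate 1 it was 11.5 CPM in 5 Fxyd6-on cells and 214 CPM in 16 Fxyd6-off cells. Splits by these genes were not tested. Pax4 was on in 5 of 29 Afp-on and 28 of 68 Afp-off cells. For Bok the Pax4 counts were close, at 16 of 48 and 17 of 49 cells.

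The genes whose rank order over Tph1-high cells was most like that of each gene were taken among 4102 genes with at least 5 counts in at least 25% of these cells. For Tac1 they were Vim, an intermediate filament gene on the stromal marker list (mean correlation 0.59 over 4 plates), 9530068E07Rik (0.46) and Glud1 (0.44). For Ucn3 they were Rab22a (0.47), Camk2n1 (0.43) and Lgals4 (0.42). In plate 1 only 2 of 21 Tph1-high cells had a Ucn3 count, so most ranks there were ties. In the jejunum plate the correlations of Ucn3 with these genes were 0.39, 0.17 and 0.009. For Trpa1 they were Rnf149 (0.54), Me2 (0.53) and Slc26a2 (0.49), and for Afp Rab3b (0.61), Me2 (0.58) and Lypd8 (0.55). Ranks of Trpa1 and Afp were also mostly ties in plates 1 and 3. Rab3b, a small GTPase of regulated secretion, also led for Fxyd6 (0.46) and Amigo2 (0.51). Me2 was second for Trpa1, Afp and Fxyd6. For Il17re the leading gene was Arl4a (0.50) and for Bok Cd81 (0.46). Olfr558 and Cpb2 had counts in 3 and 2 plates, and no gene is named for them.

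Whether other genes differ between cells high and low in Tac1, Ucn3 or Trpa1 was tested on counts summed per plate and side with edgeR's quasi-likelihood test. Plates were a block, and p-values were adjusted over all genes by Benjamini-Hochberg. Cells were split at each plate's median. Between the Tac1 sides, with Tac1 at 4158, 7673, 8269 and 8569 CPM on the high side and 1205, 2163, 2086 and 2744 CPM on the low side, none of 12314 other genes passed an adjusted p of 0.05 (0% called). At an unadjusted p below 0.05 there were 466 of 12323 genes, and 236 other genes (1.92%) were called by DESeq2. No member of the serotonin list passed, with 5 of 6 tested fitted higher, a list median of 0.28 and a median of 0.01 over all genes (log2). For Ucn3 and Trpa1 the median split mostly separated a few counts from none. On the Ucn3-high side of plates 2 and 3 and the jejunum plate, 7 of 12, 3 of 10 and 2 of 15 cells reached 100 CPM, and for Trpa1 8 of 12, 6 of 7 and 5 of 15. Plate 1 had too few cells with either. With edgeR none of 11714 and none of 11723 other genes passed (0% called in each). Unadjusted p-values were below 0.05 for 462 and 460 genes, and calls by DESeq2 numbered 322 (2.75%) and 360 (3.07%). The 0 calls came with 3 or 4 plates and do not show that the sides are alike. Split at 100 CPM, edgeR also called 0 of 11494 other genes for Trpa1, with 704 at an unadjusted p under 0.05 and 575 called by DESeq2.

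For Ucn3 a split at 100 CPM was possible in 3 plates when 2 cells a side were allowed, a choice made after the data were seen. Chga was 13941, 10279 and 22657 CPM in the Ucn3-on cells and 6043, 1668 and 10392 CPM in the Ucn3-off cells of plates 2 and 3 and the jejunum plate. It was higher in all 3 plates, by 1.81 ± 0.20 (log2, SE), with an adjusted p of 0.00293 by edgeR. Chgb, another granule protein gene, was 106917, 82706 and 84808 CPM against 85709, 54147 and 68222 CPM. The fit put Chgb higher by 0.58 ± 0.03 (log2, SE), with an adjusted p of 5.6e-06 by edgeR. In plate 2 and the jejunum plate the CPM of Chgb rose by less than the fitted value. The fit scales sums by TMM size factors and not by total counts. Its SE was taken from the F statistic and does not measure the spread between plates. Chga and Chgb were the only genes other than Ucn3 past the threshold (0.0175% called), while DESeq2 called 859. Of 10 granule genes tested, 2 rose, none fell and 8 did not pass, with a list median of 0.69 against -1.17 over all genes (log2). The Ucn3-on sums hold 7, 3 and 2 cells, and the part of their small number in that median was not tested. Ucn3-on cells were also deeper in plates 2 and 3, with medians of 589670 and 564903 counts against 432878 and 436119, and not in the jejunum plate (799692 against 810355).

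**Figure D5:**
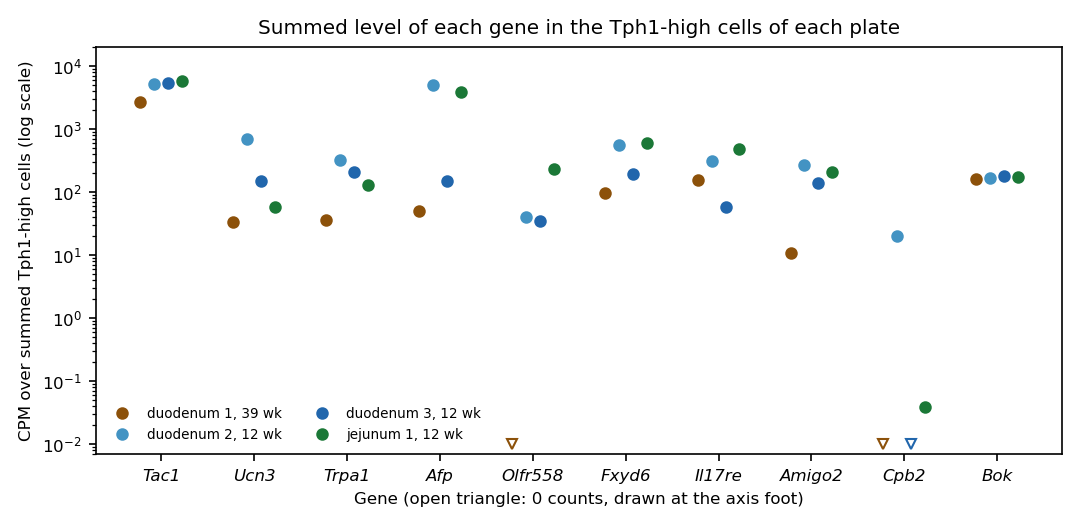
CPM of each gene over the summed Tph1-high cells of each plate (log axis; open triangles, 0 counts). Bok lies between 159 and 183 CPM in all plates, while duodenum plate 1 has the lowest Tac1, Ucn3, Trpa1, Afp, Fxyd6 and Amigo2.

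Tissue and age were compared over the 4 plate sums in 1 edgeR fit, which leaves 1 residual degree of freedom among plates. Each term rests on a single plate, so jejunum and the jejunum plate, and 39 weeks and duodenum plate 1, cannot be told apart. A lower sum can mean fewer cells with the gene or less RNA per cell. For the jejunum plate against the 12-week duodenum plates, edgeR called 0 of the 10 genes, with 1 of 15306 genes called in all (0.00653%). That gene was Krt20, an epithelial keratin, at 0, 1.15, 0.44 and 278 CPM in duodenum plates 1, 2 and 3 and the jejunum plate (adjusted p 0.0303 by edgeR). At an unadjusted p under 0.05 there were 327 genes, and 186 (1.22%) were called by DESeq2. Olfr558, at 40.7 and 34.9 CPM against 234, was 2.69 ± 0.79 higher in the jejunum plate (log2, SE) with an adjusted p of 1 by edgeR. Ucn3, at 686 and 152 CPM against 57.3, fitted -2.83 ± 0.92 (log2, SE; edgeR adjusted p 1), and DESeq2 gave it an adjusted p of 0.0402. For both genes the jejunum plate lay outside the range of the other 2, and neither passed.

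For the 39-week plate, edgeR called 22 of 15306 genes (0.144%), 5 higher (0.0327%) and 17 lower (0.111%), with 990 at an unadjusted p under 0.05 and 695 (4.54%) called by DESeq2. Of the 10 genes described here 1 passed, Olfr558, with 0 counts in 7946906 against 40.7 and 34.9 CPM in the 12-week duodenum plates. Set at 3 counts for the summed cells of plate 1, it was 100.2-fold lower than their mean. That fold covers counting error of the sum only and sets no lower limit over cells. The exact interval for 0 of 21 cells of plate 1 ends at 16.1%. In the 12-week duodenum plates Olfr558 was on in 1 of 25 and 2 of 20 cells. In those plates 88.4% and 68.4% of Olfr558 counts came from 1 cell each, and the call was lost with other size factors, with a Tph1 cut of 1000 CPM and in duodenum plates alone (adjusted p 0.0791, 0.289 and 0.538 by edgeR). Amigo2, at 10.8 CPM against 267 and 140, fitted -4.34 ± 0.89 (log2, SE; edgeR adjusted p 0.116). Ucn3 fitted -3.74 ± 0.98 (adjusted p 0.314 by edgeR) and Trpa1 -3.01 ± 0.77 (adjusted p 0.302 by edgeR). Plate 1 lay below both 12-week duodenum plates for Tac1, Ucn3, Trpa1, Afp, Olfr558, Fxyd6 and Amigo2, between them for Il17re, and slightly below them for Bok. The median of all genes was -0.29 (log2).

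Among the genes called for the 39-week plate, 10 of the 17 lower ones had 0 counts in plate 1. Scg3, a granule protein gene, was at 0 against 323 and 146 CPM, and Ptprn, a dense-core vesicle protein gene, at 0 against 207 and 67.6 CPM. Maob, which degrades amines, was at 0 against 90.6 and 89.5 CPM. Scg3 and Maob were among the 12 genes at 0 over all cells of plate 1, Tph1-low cells included. Pcsk1n, another granule gene, also had 0 counts over all cells of plate 1. These absences were thus not particular to the Tph1-high cells of that plate. In the other direction Prss22, a serine protease gene, was at 244 CPM in plate 1 and at 0 in both 12-week duodenum plates, and Tesc was at 136 CPM against 0. Of 11 granule genes 2 fell (Scg3 and Pcsk1n) and none rose, with a median of -1.07 (log2). Of 13 sensor and channel genes listed, 6 were at 0 in the Tph1-high cells of plate 1, Olfr558 among them. The 10 genes tested, which include Olfr558 and Trpa1, had a median of -3.39. Among the 9 that did not pass, Cacna1h was at 7.55 CPM against 145 and 107, and Scn3a, a sodium channel gene, at 1254 CPM against 1392 and 1004. None of the 7 serotonin genes passed, with a median of -0.63.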

How the data were processed

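Single cells were profiled as polyA RNA with the BD Precise WTA plate kit, per the labels. The authors deposited 1 table of raw counts per gene and cell, with no normalization. The submitters' processing notes name bcl2fastq 2.17.1.14, cutadapt 1.10, Bowtie2 2.2.8, STAR 2.5.3a, UMI-tools 0.4.4, HTSeq 0.6.1 and build mm10, without roles. Columns were assigned to plates by the number in their names, and 88 of 92 well positions hold a cell in at least 2 plates. One cell was sorted per well and no doublet caller was run. CPM were computed from each cell's total. The members and gene lists were chosen with earlier results of these data known. The serotonin list holds Tph1, whose level defines the cells compared, so its part in that list is not independent of the choice of cells. Named non-members are the 3 most alike by mean rank correlation and up to 5 per direction with the largest fold among those past the threshold and changed the same way in every plate compared. Tests were run on counts summed over cells with edgeR 4.0.16 (TMM, filterByExpr, quasi-likelihood, adjusted p under 0.05) and DESeq2 1.42.0 in R 4.3.3, with Python 3.11.15, after tests on simulated data. Plates with at least 5 cells a side entered the splits, with the sides of a plate paired as cells of 1 plate. Positions are from GENCODE M21 (GRCm38). Intervals are exact binomial (Clopper-Pearson, 95%), and intervals and floors cover counting error only. Alternatives were size factors, no filter on low counts, other cuts, thinning, the block and leaving out plates.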

Additional observations from a re-analysis of the deposited data

How the results depend on the processing

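Counts of called genes depended on the tool. For jejunum against duodenum they were 1, and 186 with DESeq2, 0 with RLE size factors, 13 without a filter on low counts, 0 with Tph1 at 1000 CPM, 2 with thinned cells, 0 without the age term and 1 without duodenum plate 1. For 39 against 12 weeks they were 22, and 695 with DESeq2, 2 with RLE, 86 without a filter, 40 with Tph1 at 100 CPM, 5 at 1000 CPM and 0 in duodenum plates only. Leaving out duodenum plate 2 or 3 left no residual degree of freedom, hence values with no test. Without plate 2, the jejunum fit of Afp went from 0.61 to 4.75 (and to -0.35 without plate 3) and that of Ucn3 from -2.83 to -1.34 (log2), and the age fit of Afp from -5.79 to -1.64. Bok in the jejunum turned from 0.05 to -0.025 with DESeq2 and with RLE and to -0.012 without plate 2, and Il17re by age from -0.38 to 0.15 with Tph1 at 1000 CPM and to 1.32 without plate 2; none passed. By age, DESeq2 also called Ucn3, Trpa1 and Amigo2, and the fit without a filter called Ucn3, Afp and Amigo2.

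For other genes between the sides of a split, the paired fits called 0 for Tac1, Ucn3 and Trpa1, and the fits with no replicate block called 0, 0 and 0. DESeq2 called 236, 322 and 360. For Tac1, 1 gene was called without a filter and 1 with thinned cells. Leaving out each plate gave 0 to 0 in all 3. Added after the data were seen, splits at 100 CPM with 2 cells a side gave 2 (edgeR) and 859 (DESeq2) for Ucn3 and 0 and 703 for Trpa1, and 575 for Trpa1 with DESeq2 and 5 cells. No split of Tac1 at 100 CPM was possible. No paired analysis was possible for tissue and age because the groups compared share fewer than 2 replicate numbers. The cause of these shifts was not tested. Of 240 shares of cells on under other settings, 219 stayed within the counting interval. Of the 21 that did not, the cut of 500 CPM gave 17, among them Bok at 4.76%, 8.0%, 10.0% and 6.45% of cells (47.6% to 51.6% at 100 CPM), jejunum Amigo2 at 6.45% (51.6%) and plate 1 Il17re at 4.76% (38.1%). The cut of 20 CPM gave jejunum Afp at 67.7% (48.4%) and jejunum Bok at 74.2% (51.6%). Of 92 shares for pairs of genes under other settings, 84 stayed within the counting interval and 8 did not. All 42 alternative rank correlations stayed within 1 SD of the plates.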

Other observations

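The 2 Tph1-low cells with Ucn3 on did not resemble the Ucn3-on cells described above. One, in plate 2, held 229 CPM of Ucn3 with 112797 CPM of Cck, 21357 of Gcg and 12000 of Sct, 3 other gut hormones, and 664 CPM of Tac1. The other, in the jejunum plate, held 233 CPM of Ucn3 with 51974 CPM of Cck, 93926 of Gcg and 22729 of Sct. Neither had Trpa1, Afp, Fxyd6 or Il17re above 12.7 CPM. Tac1 was on in a further set of Tph1-low cells, including a plate 3 cell with 4950 CPM of Tac1, 0 CPM of Tph1 and 143 CPM of Neurog3. A cell of plate 2 with 468 CPM of Fxyd6 held 2951 CPM of Neurog3 and 6.79 CPM of Tac1.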
